A study of Mus musculus with 32 samples.

Results

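The comparison set the polysomal pool of RNA against unfractionated total RNA in the same cells, to find mRNAs that stood above or below their total level on polysomes whatever the cell line or treatment. It used all 8 polysomal arrays and all 8 total RNA arrays, 16 of the 32 arrays of the series, chosen by their labelled RNA fraction and not by any measured value. Each condition had 2 polysomal and 2 total RNA arrays. The 4 conditions were E1KD cells treated with TGFβ, untreated E1KD cells, NMuMG cells treated with TGFβ and untreated NMuMG cells. NMuMG cells are an epithelial line of the normal mouse mammary gland, and E1KD is a derivative of it, made in the authors' laboratory, in which the RNA-binding protein hnRNP E1 (gene symbol Pcbp1) is knocked down. Whether E1KD is a single clone was not given in the sources used here. Treated cells received TGFβ2 at 5 ng/ml for 24 h. The study's methods give a medium with serum and insulin for NMuMG cells and no separate medium for E1KD cells. The labels call the 2 arrays of a group biological replicates, and the study's methods call them independent samples. No source says that they came from separate cultures, so the spread between the 2 arrays of a group may be technical. In the fit over all 4 conditions, the p-values also rest on how much the difference varied between conditions.

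Ribosomes that translate the same mRNA together form a polysome, which sediments faster through a sucrose gradient than free ribosomal subunits and single ribosomes do. An mRNA with many ribosomes is therefore found deep in the gradient, while an RNA that is not translated, or that stays in the nucleus, is expected to be scarce there. A figure legend of the study states that cytosolic extracts were fractionated, while its methods say that cell lysates were loaded on the gradients. Total RNA came from unfractionated cells and holds cytoplasmic and nuclear transcripts together. A low polysomal value from nuclear location and one from poor translation therefore cannot be told apart here. Both measurements were made on bulk lysates, so fewer cells with a transcript and less transcript per cell cannot be told apart.

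The arrays of a group were close to each other, with Pearson's r across probe sets of 0.983 to 0.991 between polysomal replicates and 0.996 to 0.997 between total RNA replicates, against 0.725 to 0.911 between a polysomal and a total RNA array. Of the epithelial markers, 12 of 14 were kept for testing, and the keratin gene Krt18 lay at 14.43 to 14.59 on polysomal arrays and 14.28 to 14.46 on total RNA arrays (log2). Of the mesenchymal markers 10 of 11 were kept. Their summed linear levels were 14800 to 33800 on polysomal and 21400 to 38200 on total RNA arrays, against 50500 to 56100 and 51600 to 63400 for the epithelial markers. Of the immune markers 4 of 7 were kept, with summed linear levels of 449 to 963 on polysomal and 492 to 570 on total RNA arrays, of the endothelial markers 1 of 6, with 67.6 to 124 and 38.1 to 60.5, and of the fibroblast and adipocyte markers on the array 0 of 6. The knockdown target Pcbp1 averaged 9.19 on polysomal and 9.44 on total RNA arrays of TGFβ-treated E1KD cells, and 10.03 and 10.83 in untreated E1KD cells, against 13.22 and 13.14 in TGFβ-treated NMuMG cells and 13.2 and 13.1 in untreated NMuMG cells. The fractions differed in the control probe sets too. The spiked poly-A controls averaged 10.97 to 12.19 on polysomal arrays against 8.23 to 9.16 on total RNA arrays, and the hybridization controls averaged 9.77 to 12.09 against 9.10 to 9.45 (differences of 2.94 and 1.97; adjusted p = 0.00205 each, exact permutation test within conditions, two-sided, over 12 control measures; the smallest unadjusted p it allows is 0.00154). The 3′ minus 5′ difference of the dap spike averaged 1.08 on polysomal and 2.24 on total RNA arrays (adjusted p = 0.00205, same exact test), that of Actb 0.68 and 0.59 (adjusted p = 0.0455, exact) and that of Gapdh 0.03 and 0.02 (adjusted p = 0.654, exact). The 18S 3′ probe set differed by -2.01 (adjusted p = 0.00205, exact), but the 18S 5′ probe set by only -0.21 (adjusted p = 0.0185, exact). What part these control differences had in the results below was not tested.

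The polysomal pool and total RNA differed for most of the transcriptome, and the largest differences were on the low side. Values were log2 RMA expression values, so a difference of 1 is 2-fold. In a limma fit with the 4 conditions as blocks, 5426 of 12600 genes (43.1%) were higher on polysomes, 5132 (40.7%) were lower and 2042 passed in neither direction at a Benjamini-Hochberg adjusted p of 0.05. The median gene differed by 0.04, but the lower tail was longer, with 727 genes at least 4-fold lower and 50 at least 4-fold higher. Over the 25432 probe sets tested, 82.5% passed, with 10100 (39.7%) higher and 10880 (42.8%) lower, and the polysomal arrays did not overlap the total RNA arrays in any of the 4 conditions for 7207 (28.3%) on the high side and 8277 (32.5%) on the low side. RMA had been run on all arrays together, so a value states a level relative to the other transcripts of its array. The side on which a transcript with a small difference fell depended on that scale: centring each array on its own median moved the median probe set to 0.43 from -0.05, and the share of called probe sets that were higher to 64.6% from 48.1%, while quantile normalization gave 0.14 and 55.8%.

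A gene was called constantly different where the adjusted p was under 0.05, the mean difference was at least 2-fold, and both polysomal arrays lay on the same side of both total RNA arrays in all 4 conditions. By this rule 1312 genes (10.4%) were constantly higher on polysomes and 2751 (21.8%) constantly lower. Among all probe sets the counts were 2253 (8.86%) and 6013 (23.6%). This balance depended on scaling, with 3609 constantly higher and 4569 constantly lower probe sets after quantile normalization, and 7251 and 3635 after centring on array medians. The rule has a size limit, and Grik5, Lor and Plcb1 lay just inside it on the high side with differences of 1.00, while Hint3, Tex264 and Ciart lay just outside with 0.999. The conditions gave similar differences, with r between 0.808 and 0.930 across the 25432 probe sets for pairs of conditions, a description in which arrays were normalized together. The spread of the differences was smaller in E1KD cells, with SDs across probe sets of 1.05 with TGFβ and 0.991 without, against 1.20 and 1.33 in NMuMG cells.

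**Figure D1:**
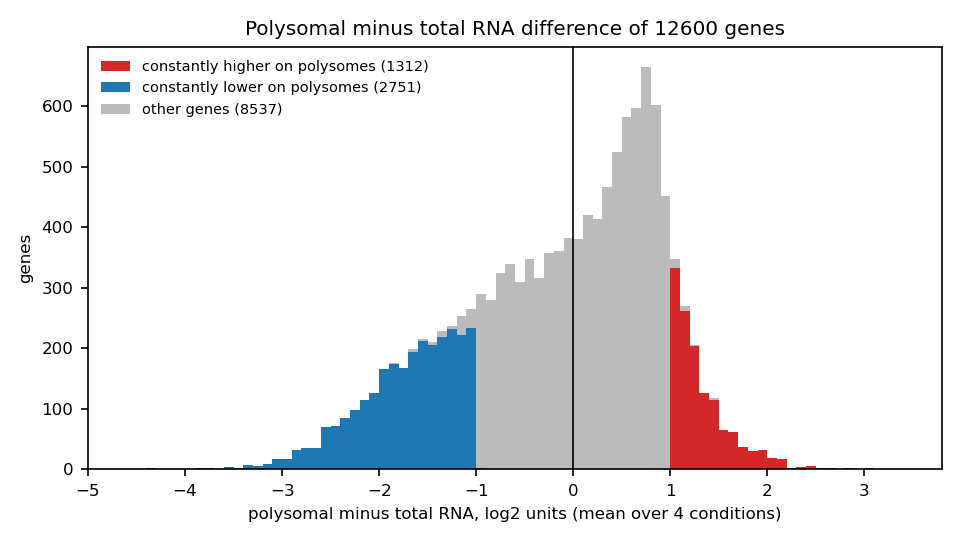
Histogram of the polysomal minus total RNA difference (log2 units, mean over 4 conditions, horizontal axis) of 12600 genes (vertical axis, genes per bin of width 0.1), with the constantly higher genes in red and the constantly lower genes in blue. The lower tail is longer, with 727 genes below -2 and 50 above 2.

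The 12 genes lowest on polysomes held 9 protein-coding genes and 3 noncoding RNAs, which are described further on. Thoc2, a subunit of the THO complex in mRNA export, read 5.80 at the lowest, 6.59 at the median and 7.62 at the highest of 8 polysomal arrays, against 9.91, 10.37 and 10.67 of 8 total RNA arrays. The 2 groups were far apart, and the difference was -3.72 ± 0.19 (SE; limma adjusted p = 9.43e-11), which is 13.2-fold lower. Ranbp2, the nucleoporin of the cytoplasmic filaments of the nuclear pore, read 6.55, 7.39 and 7.81 on polysomal arrays against 10.71, 10.88 and 10.98 on total RNA arrays, a difference of -3.54 ± 0.12 (adjusted p = 2.73e-12). Msh6, a DNA mismatch recognition protein, read 5.39, 5.89 and 6.97 against 9.15, 9.57 and 10.02, a difference of -3.51 ± 0.18. In both genes every polysomal array lay more than 2 log2 units below every total RNA array.

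Egfr, the receptor of epidermal growth factor, read 6.86, 7.53 and 8.74 on polysomal arrays against 10.02, 11.15 and 11.78 on total RNA arrays. Its total level was lower in E1KD cells and its polysomal level moved with it, so that the difference lay between -3.62 and -3.15 in all 4 conditions (mean -3.32 ± 0.11, adjusted p = 1.75e-12). Of the 6 probe sets of Egfr this was the lowest, and others were called higher, at up to 0.79. Tasor2, a relative of the HUSH silencing subunit TASOR, differed by -3.57, Mki67, which coats mitotic chromosomes and marks dividing cells, by -3.43 and Smc2, a core condensin subunit, by -3.35. The secreted matrix protein Thbs1 (thrombospondin 1) differed by -3.41 and the microtubule-binding Map1b by -3.40. Adjusted p-values of these 5 lay between 6.86e-12 and 2.7e-09.

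Apart from AY036118, the 12 genes highest on polysomes coded for proteins of varied function. The differences of all 12 were smaller in size than those of the 12 lowest. Mbd3, a subunit of the NuRD chromatin complex, read 10.41 at the lowest, 11.33 at the median and 11.91 at the highest on polysomal arrays against 8.46, 8.65 and 8.84 on total RNA arrays. All polysomal arrays stood above all total RNA arrays, most in NMuMG cells, and the difference was 2.61 ± 0.15 (adjusted p = 2.76e-10), or 6.11-fold. Clec2d, a C-type lectin-like ligand of natural killer cell receptors, read 9.12, 9.59 and 11.01 on polysomal arrays against 6.82, 7.44 and 7.94, a difference of 2.44 ± 0.15 (adjusted p = 5.21e-10). Metrn (meteorin, a secreted factor) read 10.26, 10.74 and 11.35 against 8.0, 8.35 and 8.98, a difference of 2.35 ± 0.18 (adjusted p = 7.33e-09). Pkig, an inhibitor of protein kinase A, differed by 2.43, the filamin-binding Rflna by 2.43, the galactosyltransferase B3galt5 by 2.84 and the membrane proteins Tmem134 and Tmem219 by 2.46 and 2.39. B3galt5 read 5.3 at the lowest, 5.57 at the median and 5.8 at the highest on total RNA arrays. These values lay near or under 5.52, the level used to filter low values, so the size of its difference is not well determined. The others of the 12 highest were AY036118 at 3.09, Lrrc75a at 2.60, Dgcr6 at 2.42 and 2310009B15Rik at 2.35. AY036118 had no biotype in the annotation used. The probe sets of Rflna, Pkig and Dgcr6, like that of Xist below, are of the types that may detect more than 1 transcript.

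**Figure D2:**
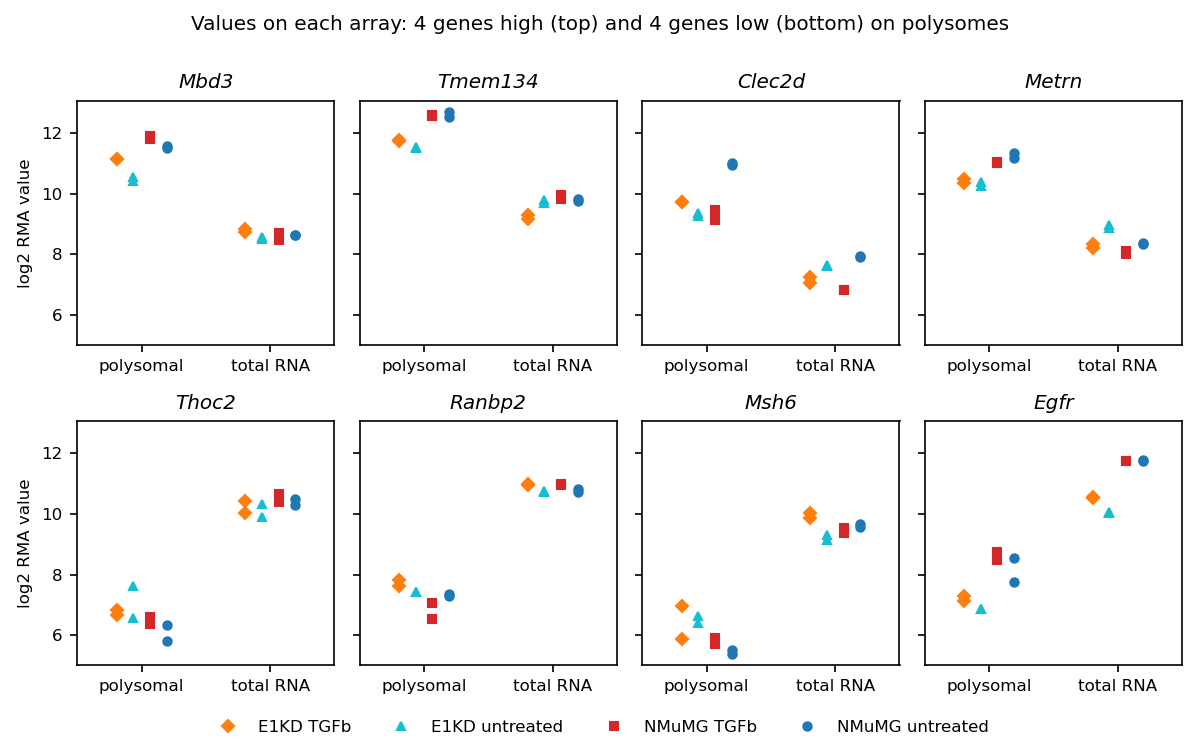
Log2 RMA value (vertical axis) of 8 genes on each polysomal array (left of each panel) and each total RNA array (right), with symbols for the 4 conditions and 2 arrays each. The polysomal arrays lie above all total RNA arrays for Mbd3, Tmem134, Clec2d and Metrn and below all of them for Thoc2, Ranbp2, Msh6 and Egfr.

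The monosomal pool, which holds the gradient fractions with free subunits and single ribosomes, gives a further readout of the same cells. Its values are set beside the others with no test, because the comparisons share the total RNA arrays and the genes were chosen on the polysomal ones. For the 2751 constantly lower genes, the median level was 7.81 in the polysomal pool and 7.90 in the monosomal pool against 9.59 in total RNA, but the pools differed within conditions in opposite directions. The median polysomal minus monosomal difference of these genes was 0.74 in E1KD cells with TGFβ, -0.04 in untreated E1KD cells, 0.39 in NMuMG cells with TGFβ and -1.48 in untreated NMuMG cells. In untreated NMuMG cells the monosomal mean stood more than 1 log2 unit above the polysomal mean for 2082 of the 2751 genes, against 3248 of all 12600 genes, and the pools were within 1 unit for 24.2% of them, against 92.5% in untreated E1KD cells. Egfr averaged 7.21 on the polysomal and 6.54 on the monosomal arrays of E1KD cells with TGFβ, and 8.15 and 9.07 in untreated NMuMG cells. Msh6 averaged 6.42 and 5.75 in E1KD cells with TGFβ, and 5.46 and 8.18 in untreated NMuMG cells. The monosomal arrays lay below the total RNA arrays in all 4 conditions for 2025 of the constantly lower genes (73.6%), against 3002 of all genes (23.8%). For the 1312 constantly higher genes the median level was 8.41 in the polysomal pool, 8.13 in the monosomal pool and 7.02 in total RNA, and 979 (74.6%) had monosomal arrays above the total RNA arrays throughout, against 3858 of all genes (30.6%). The median polysomal minus monosomal difference of these was -0.25 in E1KD cells with TGFβ, 0.10 in untreated E1KD cells, -0.06 in NMuMG cells with TGFβ and 0.98 in untreated NMuMG cells.

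The list with the lowest median was one of very large proteins, among them cytoskeletal linkers, spectrins, dynein heavy chains and ubiquitin ligases. Of its 36 measured genes 32 (88.9%) were lower on polysomes and 2 higher, 30 (83.3%) were constantly lower, and the median difference was -1.94, against 40.7% lower, 21.8% constantly lower and a median of 0.04 over all genes. Among the 8820 genes in the upper 7 deciles of mean level 51.7% were lower. The median was between -2.24 and -1.82 in each condition. Fat1, a giant atypical cadherin, differed by -3.18, the dystrophin relative Utrn by -2.90, the ribosome biogenesis factor Utp20 by -2.86 and the nuclear envelope linker Syne2 by -2.81. Fat1 read 8.15, 9.34 and 10.37 on polysomal arrays against 12.37, 12.45 and 12.57 on total RNA arrays, with no overlap. The 2 exceptions were Tln1 (talin 1) at 0.96 and the myosin heavy chain Myh14 at 0.85.

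Genes of chromatin remodelling and histone demethylation followed with a median of -1.64, and 42 of 47 (89.4%) were lower, 3 higher and 34 (72.3%) constantly lower, against 40.7% lower and 21.8% constantly lower over all genes. The demethylase Kdm5a differed by -3.13, the NURF subunit Bptf by -2.92, the bromodomain protein Baz2b by -2.71 and the SWI/SNF subunit Arid2 by -2.56. Bptf read 8.43, 8.54 and 9.04 on polysomal arrays against 11.42, 11.52 and 11.61 on total RNA arrays, and its difference was between -3.06 and -2.72 in the 4 conditions. The higher ones were Kdm4b at 0.51, and the SWI/SNF subunits Smarcd1 at 0.36 and Smarcb1 at 0.25. The calls of Smarcd1 and Smarcb1 did not hold without untreated NMuMG cells, where their adjusted p were 0.147 and 0.168.

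Splicing factors and hnRNPs had a median of -1.0, with 53 of 68 (77.9%) lower, 7 higher and 34 (50%) constantly lower, against the same 40.7% and 21.8% over all genes. The splicing kinase Clk1 differed by -3.08, the splicing factor Rbm39 by -2.75, the U2 snRNP subunit Sf3b1 by -2.55 and the speckle protein Son by -2.42. Sf3b1 read 9.14, 9.62 and 9.86 on polysomal arrays against 11.76, 12.18 and 12.37 on total RNA arrays. The Zfp zinc finger genes, the largest list, had 156 of 267 (58.4%) lower, 66 higher and a median of -0.58, a share closer to the 40.7% over all genes and the 51.7% in the upper 7 deciles of level. It was led by Zfp871 at -3.31, Zfp445 at -3.18, Zfp292 at -3.01 and Zfp462 at -2.98. Of the DNA replication genes 32 of 47 (68.1%) were lower and 8 higher, with a median of -0.75, and the helicase subunits Mcm3 and Mcm4 differed by -2.37 and -2.08 and the polymerase subunit Pola1 by -2.27.

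The machinery of protein synthesis was split. Aminoacyl-tRNA synthetases, which load amino acids onto tRNAs, had 12 of 18 (66.7%) lower and 5 higher, with a median of -0.89, against 40.7% lower over all genes and 51.7% in the upper 7 deciles of level. Lars differed by -2.71, Hars by -2.48, Rars by -2.38 and Tars by -1.73, and Lars read 8.54, 9.45 and 10.16 on polysomal arrays against 11.82, 12.08 and 12.36 on total RNA arrays. Cytosolic ribosomal proteins, whose mRNAs belong to the 5′ terminal oligopyrimidine (TOP) class, had 14 of 43 higher and 2 lower, with 27 not passing and a median of 0.10, against 43.1% higher and 40.7% lower among all genes. The median level of the list was 14.2 where the highest value on the 16 arrays was 14.92, so many members lay near the top of the scale. Whether differences are compressed there was not tested. The higher ones were led by Rpl27a at 1.89, Rps6 at 1.35, Rpl14 at 1.23 and Rps27 at 1.16. Of these, Rpl27a and Rps27 were read on probe sets of lower mean level (7.32 and 8.67). The lower ones were Rpl12 at -0.86 and Rpl4 at -0.18, and Rpl4 was 0.29 after centring on array medians. Only 44 of the 80 listed ribosomal protein genes had a probe set with a single symbol. Elongation factors and other TOP mRNAs had 7 of 18 (38.9%) higher, near the 43.1% over all genes, and 3 lower, with a median of 0.07 that was -0.12 in untreated NMuMG cells.

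Mitochondrial ribosomal proteins stood on the other side. Of 75 measured 48 (64%) were higher, 12 lower and 13 (17.3%) constantly higher, against 43.1% higher and 10.4% constantly higher over all genes, with a median of 0.49 that was above 0 in each condition (0.35 to 0.73). Mrpl54 differed by 1.88, Mrps24 by 1.67, Mrpl57 by 1.65 and Mrpl14 by 1.61 (limma adjusted p between 1.14e-10 and 4.17e-09). Subunits of oxidative phosphorylation had 32 of 70 (45.7%) higher and 25 (35.7%) lower and a median of 0.12, shares near the 43.1% and 40.7% over all genes. Among them Ndufb10 of complex I was higher by 1.33, while Ndufs1, the largest subunit of complex I, differed by -2.77, Cox7c by -2.02 and Sdha by -1.79. Ndufs1 had 8.41 at the median of its polysomal arrays against 10.98 at the median of its total RNA arrays.

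Among other lists, 25 of 34 proteasome subunits (73.5%, against 40.7% of all genes) were lower and 6 higher, with a median of -0.65, led by Psmd1, Psmd6, Psmd12 and Psmd7 between -1.66 and -1.63. Endoplasmic reticulum chaperones and translocon subunits had 22 of 36 (61.1%) lower and 5 higher and a median of -0.49. The chaperone Hspa5 (BiP), one of the most abundant, had medians of 12.40 on polysomal and 14.08 on total RNA arrays, a difference of -1.61, and Hsp90b1, Sec62 and Pdia3 differed by -1.95, -1.88 and -1.60. Lysosomal genes had 30 of 46 (65.2%) lower and 14 higher, and cholesterol synthesis genes 12 of 19 (63.2%) lower and 6 higher, with medians of -0.57 and -0.56. Among all genes in the upper 7 deciles of mean level, where nearly all members of these lists lay, 51.7% were lower. Of the 12 epithelial markers 5 (41.7%) were lower and 4 (33.3%) higher, against 40.7% and 43.1% of all genes. Their median of 0.07 changed sign under some settings. The lower ones were led by the junction genes Tjp1 at -2.21, Ocln at -2.07, Dsp at -1.68 and Cdh1 (E-cadherin) at -1.42. The higher ones were led by another junction gene, Cldn3, at 1.60, so junction genes lay on both sides. Of the 10 mesenchymal markers 5 (50%) were lower and 3 (30%) higher. Their median of -0.44 was 0.03 after centring on array medians. The lists of chaperones, initiation factors, immediate early genes, mRNAs with iron-responsive elements or regulatory upstream reading frames, histones, glycolysis, collagens, Rab GTPases and selenoproteins had medians between -0.45 and 0.18, and all of these medians were above 0 after centring on array medians.

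**Figure D3:**
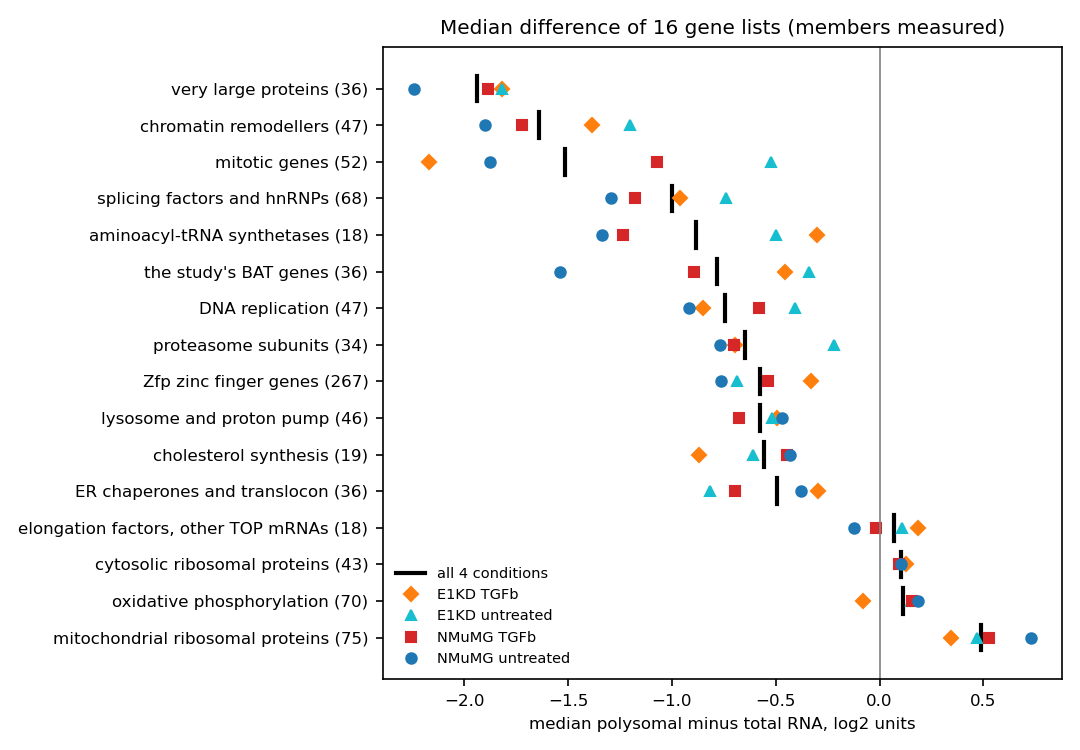
Median polysomal minus total RNA difference (log2 units, horizontal axis) of 16 gene lists, with the number of measured genes in brackets; black bars give the median of the mean over conditions and symbols the median within each condition. The lists run from -1.94 for very large proteins to 0.49 for mitochondrial ribosomal proteins, and the mitotic genes have the widest spread between conditions.

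Noncoding RNAs lay on both sides. Of 30 measured genes of the list 17 (56.7%, against 43.1% of all genes) were higher on polysomes and 9 (30%, against 40.7%) lower, with a median of 0.54. Xist, which coats the inactive X chromosome, read 7.66, 8.87 and 9.28 on polysomal arrays against 11.83, 12.40 and 12.99 on total RNA arrays, a difference of -3.82 ± 0.15 (limma adjusted p = 6.51e-12), and its other 2 probe sets differed by -4.92 and -5.65. Malat1, a resident of nuclear speckles, differed by -2.01, and its 7 probe sets lay between -2.41 and -1.60. Kcnq1ot1, an imprinted antisense transcript, differed by -2.16 and Tug1 by -2.05. The other lower members, listed after their values were seen, were Mir22hg at -1.98, Firre at -1.52, Snhg14 at -1.35, Airn at -1.18 and Oip5os1 at -0.95. Outside the list, the noncoding 4632427E13Rik read 4.01, 4.56 and 5.44 on polysomal arrays against 8.77, 8.93 and 9.40 on total RNA arrays, and Gdap10 read 3.84, 4.17 and 4.45 against 6.38, 7.73 and 8.19. All polysomal values of both were under 5.52, the level used to filter low values, so the fitted differences of -4.39 and -3.38 are not measured sizes.

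The small nucleolar RNA host genes (Snhg), which carry small nucleolar RNAs in their introns and are spliced and exported, stood with the higher ones. Of the 12 in the list 10 were higher, 1 lower and 1 passed in neither direction, against 43.1% of all genes higher. Of all long noncoding RNAs in the upper 7 deciles of mean level 68% were higher. The median of the 12 was 0.62, with 0.97 and 0.39 in E1KD cells with and without TGFβ. In NMuMG cells it was 0.59 and 0.56 with and without TGFβ. Snhg16 differed by 1.52, Snhg12 by 1.20, Snhg10 by 1.1 and Snhg7 by 1.08, as did Jpx by 1.42, all named after their values were seen. In these 5 the polysomal mean over conditions was above the monosomal mean, for example 13.09 against 11.45 for Snhg12, whose total RNA mean was 11.89. They were chosen on the same polysomal arrays, so this is no separate support. The median polysomal minus monosomal difference was 0.21 over all constantly higher genes. Over all 417 genes annotated as long noncoding RNAs 329 were higher and 43 lower, but most had low levels. In the upper 7 deciles of mean level 68 of 100 were higher and 17 lower, with 32 constantly higher and 9 constantly lower, against 30.5% higher and 52.2% lower among protein-coding genes of that range.

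The 36 genes that the study named for TGFβ-regulated translation through hnRNP E1 were chosen by it on these arrays, so their direction is not independent evidence. On polysomes 26 (72.2%, against 40.7% of all genes) were lower than in total RNA, 1 was higher and 12 were constantly lower, with a median of -0.78. By condition the median was -0.46 in E1KD cells with TGFβ, -0.34 in untreated E1KD cells, -0.90 in NMuMG cells with TGFβ and -1.54 in untreated NMuMG cells. Egfr had the largest difference, read on the lowest of its 6 probe sets. It was followed by the chromatin protein Baz1a at -2.33, Resf1 at -2.18 and the zinc finger gene Zfp266 at -1.82. The higher one was Tmem167 at 0.68.

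The span of the gene went with the difference. Spearman's rho across 12052 protein-coding genes between genomic span and the polysomal minus total RNA difference was -0.352, and it was between -0.370 and -0.292 within each condition, a description over genes that share arrays. The span runs from the first to the last annotated base in GRCm38.p6 and includes introns. The shortest decile of genes had a median difference of 0.58, the fifth decile -0.04 and the ninth -0.75, while the longest decile had -0.55. The median span was 44240 bases among constantly lower genes and 11190 bases among constantly higher genes, against 21930 over all genes. Long genes were thus frequent on the low side, with 40.7% of the ninth decile constantly lower against 4.48% of the shortest decile.

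Level also went with the difference. In the lowest 3 deciles of mean level 71.2% of 3780 genes were higher on polysomes and 15.1% lower, with a median of 0.59, while in the upper 7 deciles 31% of 8820 genes were higher and 51.7% lower, with a median of -0.32. Within the upper 7 deciles the relation to span was steeper, with a rho of -0.413 across 8676 genes, a median of 0.43 in the shortest decile of span and of -1.11 in the longest. Promoter GC content, known for 81.3% of protein-coding genes, had a rho of -0.09. Transcript length and protein length were not analysed here.

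**Figure D4:**
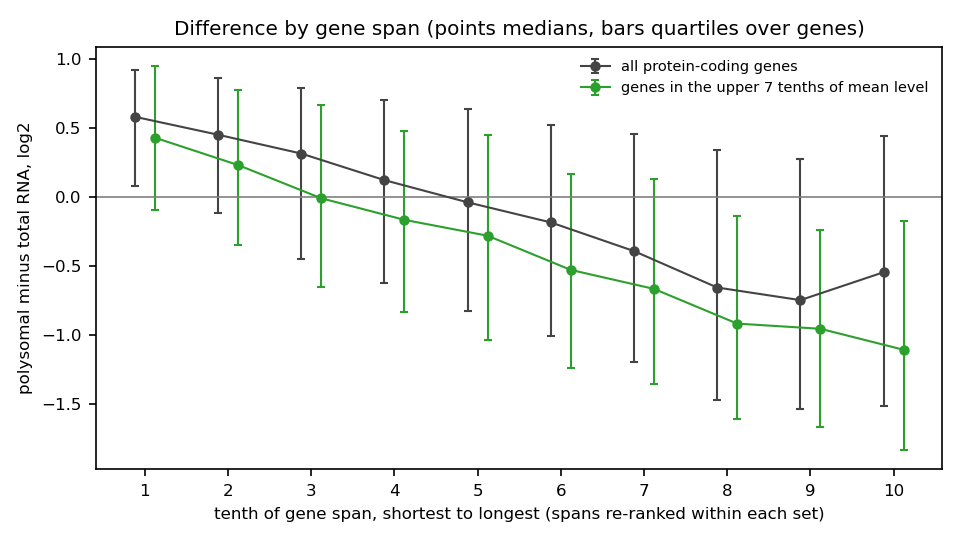
Polysomal minus total RNA difference (log2 units, vertical axis) by decile of genomic span (horizontal axis, shortest to longest) for all 12052 protein-coding genes and for the 8676 in the upper 7 deciles of mean level, with medians as points and quartiles over genes as bars. The medians descend from 0.58 and 0.43 in the shortest decile, and the quartile bars of neighbouring deciles overlap.

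A gene was represented above by its probe set of highest mean, and probe sets of one gene did not always give the same difference. Of 5612 genes with at least 2 kept probe sets, 975 had 1 called higher and 1 called lower, and 61 had 1 constantly higher and 1 constantly lower. The median range within a gene was 0.68, and in 524 genes it was at least 2. The splicing factor Rbm39 had 11 probe sets between -4.82 and -0.62, all below 0. Hnrnpab, an RNA-binding protein gene, had 6 probe sets between -2.08 and -1.09 and 1 at 2.33. Actb differed by -0.285 (limma adjusted p = 0.00113) on its probe set of highest mean, while its other kept probe set was constantly higher, at 2.25. For Egfr the probe set used above was the lowest of 6, of which 3 were between 0.62 and 0.79. Utrn and Arid2, low by the probe sets used above, also had probe sets at 0.38 and 0.99. The noncoding Gas5 had 2 probe sets at -3.97 and -3.23 with means of 6.48 and 6.45 on polysomal arrays and 10.45 and 9.68 on total RNA arrays, and 2 near 0.14 and 0.16 at levels above 13 in both fractions. Where in each transcript the probe sets lie was not analysed here.

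The size of the difference varied between conditions for many genes, while the direction of the constant ones did not by construction. A test of any difference between the 4 conditions passed for 6894 of 12600 genes (54.7%), among them 1882 of the 2751 constantly lower and 690 of the 1312 constantly higher genes. The polysomal minus total RNA difference was higher in E1KD than in NMuMG cells for 3142 genes (24.9%) and lower for 2775 (22%), and higher with than without TGFβ for 1296 (10.3%) and lower for 629 (4.99%). The counts for TGFβ depended on single arrays and moved both up and down when 1 was left out. With a replicate block 1179 probe sets had a higher difference under TGFβ and 481 a lower one. Without the block these counts were 2334 and 1179.

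Among the genes whose difference changed most between the lines, S100a8, a calcium-binding protein of epithelial and myeloid cells, averaged 5.78 on polysomal and 5.35 on total RNA arrays of TGFβ-treated E1KD cells and 8.36 and 5.01 in untreated E1KD cells, against 10.22 and 11.14 in TGFβ-treated NMuMG cells and 7.40 and 12.34 in untreated NMuMG cells. Its total level was thus far lower in E1KD cells while its polysomal level overlapped between the lines, and the fitted differences stood 4.82 apart over both treatments (limma adjusted p = 4.94e-08). Its total RNA means in E1KD cells were under the filter level of 5.52, so that size is not well determined, and it pools treatments whose differences in E1KD cells were 0.43 with TGFβ and 3.35 without. Dhx36, a helicase of G-quadruplex structures, averaged 9.49 on polysomal and 10.65 on total RNA arrays of TGFβ-treated E1KD cells, against 7.61 and 11.06 in TGFβ-treated NMuMG cells. Here the total levels were close and the polysomal levels differed, and over both treatments the difference was 2.75 higher in E1KD cells (adjusted p = 1.22e-07), as it was by 2.81 for the chromosome maintenance gene Smc5. In the other direction Cyp1b1, a cytochrome P450, averaged 6.27 on polysomal and 9.65 on total RNA arrays of TGFβ-treated E1KD cells and 5.75 and 7.74 in untreated E1KD cells, against 4.96 and 5.61 in TGFβ-treated NMuMG cells and 6.68 and 5.09 in untreated NMuMG cells. Its fitted difference in E1KD minus NMuMG cells was -3.16 (adjusted p = 8.74e-07), a size not well determined because part of the NMuMG values lay near or under the filter level.

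With TGFβ the difference of Neat1, the RNA scaffold of nuclear paraspeckles, was 1.87 higher (limma adjusted p = 5.52e-06). Its polysomal minus total RNA difference was 1.94 in E1KD cells with TGFβ, -0.45 in untreated E1KD cells, -1.20 in NMuMG cells with TGFβ and -2.56 in untreated NMuMG cells, so that its mean over conditions, -0.57, did not pass the test (adjusted p = 0.221). Clk1 differed by -1.11 in E1KD cells with TGFβ and by -3.31 without, and by -3.32 in NMuMG cells with TGFβ and -4.6 without, 1.75 higher with TGFβ over both lines. Nrp1, a coreceptor of semaphorins and vascular endothelial growth factor, went the other way, with differences of -3.64 in E1KD cells with TGFβ and -1.82 without, and -1.62 in NMuMG cells with TGFβ and 0.59 without. Its total RNA mean was 11.31 in E1KD cells with TGFβ and 9.02 without, against polysomal means of 7.67 and 7.2 in the same cells. Pcbp1 itself did not pass the test over all conditions, with -0.22 (adjusted p = 0.0861), nor did Fam3c, a reported target of hnRNP E1, with -0.03 (adjusted p = 0.85). The other kept probe set of Fam3c was called lower, at -0.26 (limma adjusted p = 0.0358).

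Mitotic genes were low on polysomes, and their differences varied between conditions. Of 52 measured 45 (86.5%, against 40.7% of all genes) were lower and 2 higher over all conditions, with 31 (59.6%, against 21.8%) constantly lower and a median of -1.51. The motor proteins Kif20b and Cenpe differed by -3.01 and -2.88, and the higher ones were Cdca3 at 1.09 and the mitotic ubiquitin-conjugating enzyme Ube2c at 0.51. The median was -2.17 in E1KD cells with TGFβ and -0.53 in untreated E1KD cells, and -1.07 in NMuMG cells with TGFβ and -1.88 in untreated NMuMG cells. The change of the difference with TGFβ was lower in E1KD than in NMuMG cells for 46 of the 52 genes (88.5%) and passed in neither direction for the others, where the same test called 1311 of all 12600 genes lower (10.4%) and 1094 higher (8.68%). The median of that double difference was -2.15. It was lower for 43 to 47 of the 52 genes when any one of the 16 arrays was left out.

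The kinase Plk1, named with the next 3 after their values were seen, averaged 8.15 on polysomal and 10.47 on total RNA arrays of TGFβ-treated E1KD cells, 8.36 and 7.89 in untreated E1KD cells, 8.86 and 8.96 in TGFβ-treated NMuMG cells and 8.0 and 9.01 in untreated NMuMG cells. Its total level varied more than its polysomal level, and the double difference was -3.70 (limma adjusted p = 0.000184). The cyclin Ccna2 averaged 9.81 and 11.14, 9.95 and 9.05, 10.78 and 10.07, and 9.51 and 10.09 on polysomal and total RNA arrays in the same order of conditions, with a double difference of -3.53 (adjusted p = 3.22e-06). Cdk1, the main mitotic kinase, had a double difference of -3.12 and Aurka, a spindle kinase, of -2.91. The same contrast was higher for 23 of 36 endoplasmic reticulum chaperone and translocon genes (63.9%), with a median of 0.81, and lower for 21 of 47 DNA replication genes (44.7%) and 16 of 34 proteasome subunits (47.1%). The total RNA of TGFβ-treated E1KD cells had the highest level of all 4 conditions for Plk1, Ccna2, Aurka and Cdk1, and the part of cell cycle stage in these values was not tested.

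**Figure D5:**
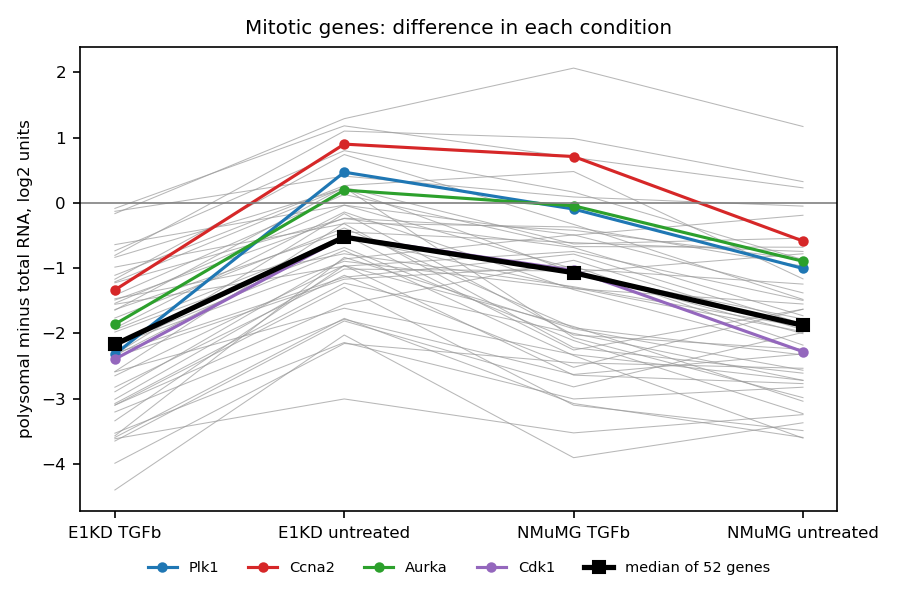
Polysomal minus total RNA difference (log2 units, vertical axis) of 52 mitotic genes in each of the 4 conditions (horizontal axis), 1 grey line a gene, with Plk1, Ccna2, Aurka and Cdk1 in colour and the median in black. The median is -2.17, -0.53, -1.07 and -1.88 from left to right; lines join conditions only to show which values belong to the same gene.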

How the data were processed

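RNA of the polysomal pool, the monosomal pool and unfractionated cells was measured on Affymetrix mouse genome expression arrays. The authors processed all 32 arrays in Affymetrix Expression Console, and the deposited values are log2 RMA expression values with 2 decimals; no array intensities were used. RMA scales all arrays to one distribution of probe values, so a difference between fractions is relative to the other RNAs on the array, and it compresses differences near background.

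Groups came from the labels. The 64 Affymetrix control probe sets were left out, and a probe set was kept where 8 or more of the 32 arrays exceeded 5.52, the overall median (25432 of 45101). The platform annotation gave 1 symbol to 34958 probe sets, several to 932 and none to 9211; only single symbols were named, and 22090 kept probe sets of 12600 genes had one. A gene stands by its kept probe set of highest mean over the 16 arrays. Gene spans and biotypes came from RefSeq, GRCm38.p6. limma 3.58.1 in R 4.3.3 (lmFit, eBayes) fitted the fraction with the 4 conditions as blocks (11 residual degrees of freedom) and, for differences between conditions, 8 group means (8 degrees of freedom). The residual of the blocked fit also holds the variation of the fraction difference between conditions. Benjamini-Hochberg adjustment covered all kept probe sets. The fits were tested on simulated data. Gene lists are described by counts and medians, with no set test.

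Named genes were the 12 largest constant differences in each direction, up to 4 members of each list with the largest differences past the threshold and its opposite members where fewer than 5, the 6 largest in each direction between conditions, and Actb, Gapdh, Pcbp1 and Fam3c; no kept probe set carried the single symbol Gapdh. Members and lists were chosen with earlier results of these data known. The number of arrays limits the precision. Immunoprecipitation arrays entered only the filter.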

Additional observations from a re-analysis of the deposited data

Results flagged for a closer look

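Each value here is a difference in log2 units between conditions of the polysomal minus total RNA difference, named because the test of that difference passed at an adjusted p of 0.05 (limma, 8 group means), and no cause was tested. Sizes for S100a8 and Cyp1b1 rest partly on values under the filter level of 5.52. With TGFβ minus without, it was 2.04 for Mamdc2, 1.87 for Neat1, 1.80 for Mmp13, 1.75 for Clk1, 1.74 for S100a9, 1.69 for Gsta3 and 0.56 for Fam3c. It was -2.09 for Ackr3, -2.02 for Nrp1, -1.82 for Cyp1b1, -1.77 for Gja1, -1.58 for Dock11, -1.51 for Hs6st2 and -0.47 for Ccna2.

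In E1KD minus NMuMG cells it was 4.82 for S100a8, 3.15 for Mmp13, 2.81 for Smc5, 2.78 for Plce1, 2.75 for Dhx36, 2.71 for Lima1, 1.98 for Rpl12 and 0.43 for Fam3c. It was -3.34 for Tcstv1, -3.16 for Cyp1b1, -3.03 for Gm20767, -2.82 for Lce1f, -2.78 for AF067061, -2.61 for Btbd11, -0.73 for Smarcd1, -0.61 for Pcbp1 and -0.28 for Ccna2. Tcstv1, Gm20767 and AF067061 had total RNA means of 7.02, 7.60 and 9.10 in TGFβ-treated E1KD cells, the highest of the 4 conditions in each. For 46 of 52 mitotic genes the change with TGFβ was lower in E1KD than in NMuMG cells.

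In probe sets outside the main comparison, polysomal arrays stood above total RNA arrays by 2.94 for the spiked poly-A controls, 1.97 for the hybridization controls, 1.51 for the B1 repeat and 1.48 for the B2 repeat, each without overlap in any condition.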

How the results depend on the processing

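The main counts of 10100 probe sets higher and 10880 lower on polysomes, 2253 constantly higher and 6013 constantly lower, stayed within 1.5 times of themselves under most settings. Exceptions were 22391 higher with no filter on low values and 5908 with a filter requiring all 16 arrays, which tests fewer probe sets; 3609 constantly higher after quantile normalization; 7251 constantly higher and 3635 constantly lower after centring on array medians; and, with a size limit of 1.5-fold, 5947 constantly higher, or, of 4-fold, 93 constantly higher and 1791 constantly lower. Centring on Actb and Gapdh used their 3′ control probe sets. Leaving out 1 array gave 9888 to 10097 higher, 10700 to 10850 lower, 2113 to 2360 constantly higher and 5865 to 6182 constantly lower.

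Replicate numbers did not pair the fractions (correlations of replicate deviations -0.173, -0.011, 0.132 and -0.118). A replicate block gave 9667 higher and 10460 lower, and for the TGFβ contrast 1179 higher and 481 lower, against 2334 and 1179 without the block. That contrast also moved when 1 array was left out, over 1412 to 3577 higher and 622 to 1776 lower. Higher counts were 3577 without NMuMG untreated polysomal replicate 1, 1414 without NMuMG untreated total replicate 2, 1412 without NMuMG TGFβ total replicate 1, 1478 without E1KD untreated total replicate 2 and 1482 without E1KD TGFβ total replicate 2. Lower counts were 1776 without NMuMG untreated polysomal replicate 2, 622 and 655 without NMuMG untreated total replicates 1 and 2, 668 and 647 without NMuMG TGFβ total replicates 1 and 2, 658 and 700 without E1KD untreated total replicates 1 and 2, and 717 and 725 without E1KD TGFβ total replicates 1 and 2. The E1KD contrast kept 5583 to 6838 higher and 4121 to 5211 lower probe sets, any difference between conditions 11089 to 14341, and the mitotic genes 43 to 47. The cause was not tested.

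Of the named genes' differences across settings, 2751 kept direction and call, 13 lost the call, 4 gained it (all Pcbp1) and 10 changed sign. After centring on array medians Rpl4 was 0.29, Actb 0.19 and Pcbp1 0.25. In the main fit Actb was -0.285. Fam3c, near 0, was 0.13 after quantile normalization, 0.45 after centring on array medians, 0.057 after centring on Actb and Gapdh, 0.16 without untreated NMuMG cells, between -0.078 and 0.067 with 1 array left out, and 0.067, 0.018 and 0.031 without NMuMG untreated polysomal replicate 2, total replicate 1 and total replicate 2. Calls lost under some setting were those of Smarcb1, Smarcd1, Rpl12 and Rpl4, and 10 of 31 list medians changed sign after centring on array medians, all of lists with medians between -0.45 and -0.06. The planned comparison with protein length was not run because no protein table was at hand.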
